A study of Mus musculus with 2 samples.

Results

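Genes of glycolysis and of the response to low oxygen were examined in RAW 264.7 cells, a mouse macrophage-like tumour line, treated with IFN-gamma alone or with IFN-gamma and adenosine. The list held 38 genes, taken by name: glucose transporters and glycolytic enzymes, genes of pyruvate and lactate handling, the subunits and regulators of hypoxia-inducible factor (HIF), and other HIF targets. A probe set with the gene as its single annotated symbol was found for 32 of them, and 31 were measured, of 6819 measured genes in all. Hk3, Gpi1, Pfkfb4, Eno1, Hif1an and Ankrd37 were not analysed here. Ldhb, the heart-type lactate dehydrogenase subunit, was the 1 gene with probe sets that did not reach the floor. Its brightest probe set read 13.6 with IFN-gamma and 30.4 with adenosine.

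Both groups received 1000 U/ml IFN-gamma for 4 h after a change of medium, and in 1 of them 300 uM adenosine, a nucleoside with its own receptors on macrophages, was given as well. RNA from 2 experiments was pooled per group and hybridized to 1 Affymetrix array, so no difference here has a replicate check, and no array of untreated cells was used. The study asked how adenosine alters the expression profile of IFN-gamma-activated macrophages. In bulk RNA of this kind, a change in the share of responding cells and a change of RNA per cell cannot be told apart. All 8 macrophage markers examined were measured, among them Csf1r (5552 with IFN-gamma, 5005 with adenosine) and Lyz2 (6444 and 13361). None of 11 markers of T and B cells, fibroblasts, epithelium and endothelium on the array was, the highest at 13.2.

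Deposited signals were dimmer on the adenosine array for most genes, with a median of 15.2 against 45.9, and 30 of the 31 measured genes had a lower deposited signal there. Signals of that array were therefore multiplied by 2.82, which sets the median log2 ratio of the probe sets to 0, and every signal below is on that scale unless called deposited. A value above 0 thus means higher than the array's median ratio, not a higher deposited signal. The floor, a convention for the lowest signal used, was 44.0. Control transcripts spiked into both hybridizations differed less between the arrays, with a deposited median log2 ratio of -0.53 ± 0.19 (SD, 18 probe sets). The genes had -1.50. The error of a single log2 ratio could be taken only from the scatter between probe sets of a gene, an SD of 0.52 over 2377 genes, which leaves out cultures and arrays. It was 0.42 in the brightest 594 of these genes and 0.56 in the dimmest 595. For a difference between the log2 ratios of a pair of genes, the overall value corresponds to an SD of 0.73.

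Glycolysis splits glucose into pyruvate in the cytosol, and activated macrophages are known for running it at a high rate and passing much of the pyruvate on to lactate. HIF-1, a dimer of HIF-1 alpha and ARNT, raises transcription of glucose transporters and glycolytic enzymes. Oxygen-dependent prolyl hydroxylases of the EGLN family mark HIF-1 alpha for capture by VHL and degradation, so much of its control lies in protein stability, which arrays of RNA do not measure.

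As a list these genes were well expressed. Of those with a probe set 96.9% were measured, against 55.0% of all genes, and the median IFN-gamma signal of the measured ones was 821, against 304.

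The list held genes at both ends. Of the 31 measured genes, 20 lay above 0 and 11 below, 64.5% above against 44.0% of all measured genes. At this scaling 3 were at least 2-fold higher with adenosine (Arnt, Pfkl and Gapdh), 9.68% of them, against 4.52% of all measured genes. At least 2-fold lower were also 3 (Bhlhe40, Slc2a3 and Ndrg1), again 9.68%, against 10.1% of all measured genes. Of the higher genes, Arnt alone was also higher in deposited signals. At 1.5-fold, 9 were higher (29.0%, against 12.9% of all) and 8 lower (25.8%, against 21.8%). After loess scaling, which removes the trend of ratios with signal, 3 genes were again higher (Arnt, Pfkl and Egln1, against 5.4% of all) and 3 lower (against 8.57%). Of the genes 1.5-fold higher, Arnt, Pfkl, Egln1 and Mxi1 then stayed so, whereas Gapdh, Pkm, Ldha, Aldoa and Pgk1 fell short. Of the lower ones only Egln2 fell short. In deposited signals 21 were 2-fold lower, against 78.7% of all genes, and 0 higher, against 0.14%. With scaling on the spiked-in controls 11 were lower (50.7% of all) and 0 higher (0.473%). The median log2 ratio was 0.17 over the 31 genes and -0.08 over all 6819. It was 0.17 over the 20 measured glycolytic genes, 0.32 over 6 HIF subunits and regulators and -0.12 over 5 other HIF targets. All lie within 0.52 of 0, but that SD is for a single log2 ratio and does not measure the error of a median. The spread within each group was wide, from -1.58 to 1.16, from -0.60 to 1.93 and from -1.83 to 0.86. These groups therefore differ less in their centre than their own genes differ among themselves.

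**Figure D1:**
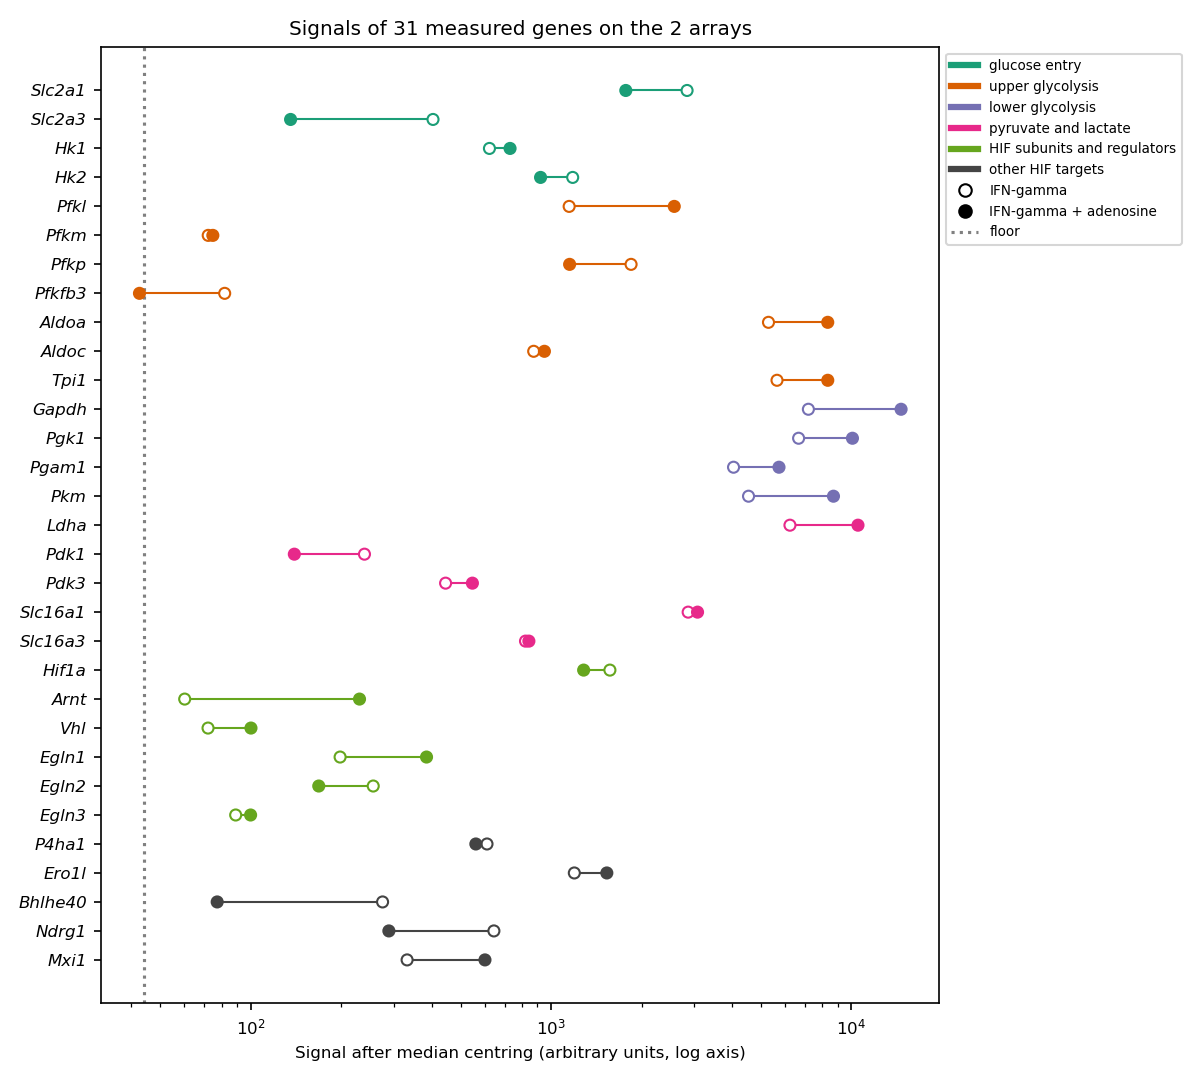
Signal on each array (log axis, arbitrary units, after median centring) for the 31 measured genes, coloured by role, with open circles for IFN-gamma, filled circles for IFN-gamma with adenosine and a dotted line at the floor of 44.0. The abundant enzymes from Aldoa to Ldha lie at the right with the adenosine circle to the right of the other, whereas Slc2a1, Slc2a3, Hk2, Pfkp, Pfkfb3, Pdk1, Bhlhe40 and Ndrg1 are among those with it to the left.

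The 5 promoters below are printed to show the core of the hypoxia response element, the letters that HIF dimers bind, in genes from both sides of 0. Gapdh, Pgk1 and Ldha had log2 ratios of 1.03, 0.60 and 0.75, and Slc2a1 and Pdk1 of -0.68 and -0.78. Capitals mark every match to ACGTG or GCGTG on either strand (as CACGT or CACGC on the strand printed), and overlapping matches form 1 stretch. The windows, from RefSeq on GRCm38.p6, run from 250 bases before a transcription start to 50 after it. They lie at chr6:125165724-125166023 on the minus strand for Gapdh and, on the plus strand, at chrX:106186850-106187149 for Pgk1, chr7:46845554-46845853 for Ldha, chr4:119108495-119108794 for Slc2a1 and chr2:71872974-71873273 for Pdk1. Where a gene had 2 windows, as Ldha and Pdk1 did, the 1 with more stretches is shown.
Gapdh: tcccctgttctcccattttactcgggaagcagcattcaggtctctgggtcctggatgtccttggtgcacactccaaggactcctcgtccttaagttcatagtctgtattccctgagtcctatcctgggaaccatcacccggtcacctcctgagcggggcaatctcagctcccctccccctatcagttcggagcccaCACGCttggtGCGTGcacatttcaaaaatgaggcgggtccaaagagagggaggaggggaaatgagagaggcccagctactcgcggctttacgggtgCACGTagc
Pgk1: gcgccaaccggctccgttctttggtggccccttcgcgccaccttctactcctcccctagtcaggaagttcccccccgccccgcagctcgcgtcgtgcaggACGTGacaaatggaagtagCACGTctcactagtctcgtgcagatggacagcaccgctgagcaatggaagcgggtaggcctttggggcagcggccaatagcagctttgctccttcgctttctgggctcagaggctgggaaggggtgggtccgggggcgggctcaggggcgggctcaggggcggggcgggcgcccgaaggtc
Ldha: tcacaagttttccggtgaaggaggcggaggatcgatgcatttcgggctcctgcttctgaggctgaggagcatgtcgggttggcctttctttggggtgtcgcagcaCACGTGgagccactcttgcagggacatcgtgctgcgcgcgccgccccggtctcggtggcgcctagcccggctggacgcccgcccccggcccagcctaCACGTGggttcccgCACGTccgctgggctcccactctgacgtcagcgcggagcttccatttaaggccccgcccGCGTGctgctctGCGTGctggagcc
Slc2a1: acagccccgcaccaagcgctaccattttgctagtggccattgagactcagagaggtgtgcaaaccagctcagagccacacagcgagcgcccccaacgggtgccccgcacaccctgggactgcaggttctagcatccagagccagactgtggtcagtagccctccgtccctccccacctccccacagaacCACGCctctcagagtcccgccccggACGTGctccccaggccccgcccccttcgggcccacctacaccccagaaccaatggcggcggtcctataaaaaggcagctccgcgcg
Pdk1: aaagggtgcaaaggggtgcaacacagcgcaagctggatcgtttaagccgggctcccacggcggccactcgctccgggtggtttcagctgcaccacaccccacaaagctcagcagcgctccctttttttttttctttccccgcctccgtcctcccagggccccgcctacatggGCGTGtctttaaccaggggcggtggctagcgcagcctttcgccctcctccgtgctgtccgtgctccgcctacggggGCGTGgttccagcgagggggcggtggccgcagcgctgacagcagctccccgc
The Ldha window held 5 such stretches, Gapdh 3 and the others 2 each. In Ldha 2 of the stretches read CACGTG, the E-box, which overlaps this core and is bound by other factors, among them the protein of Bhlhe40. A match was found in 31 of the 35 listed genes with a window in the table (88.6%), against 71.3% of 5653 measured genes with one and 46.7% of all 27025 genes. Slc2a3, Bhlhe40 and Ndrg1, the listed genes at least 2-fold lower, had no window there and were not searched. The 35 include genes that were not measured, such as Eno1 and Gpi1, and a gene with several windows has more chances of a match. Among genes with 1 window, 83.3% of 24 listed genes had a match, against 43.1% of all 22862 such genes. The letters are thus common, and among the genes searched they occur in genes with ratios above 0 and in genes below it. A match is a description of the sequence and not a measured binding site.

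Genes of glucose entry were lower or close to the array median. Slc2a3, which encodes the high-affinity transporter GLUT3, read 404 with IFN-gamma and 136 with adenosine, 2.98-fold lower (log2 ratio -1.58). A second probe set, at 97.5, was at least 2.22-fold lower. Both of these carry names that mark shared targets. Another, close to the floor at 45.2, gave -0.04 with the adenosine signal raised to the floor, so the difference rests on the shared ones. Slc2a1, which encodes GLUT1, the main transporter of activated macrophages, read 2835 and 1772, 1.60-fold lower. The others gave -0.41 and -0.10, so all 3 lie below 0 and only the brightest beyond the scatter. The value of -0.10 is from the only Slc2a1 probe set kept in the setting without shared probe sets. That setting drops names ending in _s_at or _x_at, as for Slc2a3, and also those ending in _a_at, as for Slc2a1.

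Hexokinases trap glucose in the cell as glucose 6-phosphate. Hk2, the inducible form, read 1179 and 922 (log2 ratio -0.36), and Hk1, the housekeeping form, 623 and 730 (0.23). Both lie within the scatter, although a second Hk1 probe set gave 1.11. The median of the 4 glucose entry genes was -0.52, with 1 above 0.

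The phosphofructokinase isoforms stood on opposite sides. Phosphofructokinase is the committed step of glycolysis, and its tetramers mix liver (Pfkl), platelet (Pfkp) and muscle (Pfkm) subunits. Pfkl read 1148 with IFN-gamma and 2569 with adenosine, 2.24-fold higher (log2 ratio 1.16), and its second probe set gave 0.86. Both probe sets have names ending in _a_at, not in _s_at or _x_at. The setting without shared probe sets drops all of these, so Pfkl was not measured in it. Pfkp read 1845 and 1152, 1.60-fold lower (-0.68), and its second gave -0.27. The Pfkl log2 ratio exceeded that of Pfkp by 1.84, with the 4 pairings of probe sets from 1.13 to 1.84, a difference that a common scaling factor leaves as it is and that was 1.82 with loess. Pfkm was faint at 72.1 and 74.7 (0.05). Pfkfb3, whose product makes the activator fructose 2,6-bisphosphate, read 81.8 and fell below the floor with adenosine at 42.6, at least 1.86-fold lower. Its second probe set, below the floor with IFN-gamma, gave 0.01.

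The 7 abundant enzymes from aldolase to lactate dehydrogenase lay above the array median by their brightest probe sets, and below 0 in deposited signals. Their signals were among the highest on the IFN-gamma array, where 5 of these genes ranked in the top 100. Gapdh, glyceraldehyde 3-phosphate dehydrogenase, read 7185 and 14626, 2.04-fold higher, and its other control probe sets had log2 ratios of 0.96 and 0.89. The signal of the 3′ set over that of the 5′ set was 0.761 with IFN-gamma and 0.691 with adenosine, a measure of RNA integrity. A bright probe set that Gapdh shares with its pseudogenes gave 1.11, and a faint shared one -1.17. Pkm, pyruvate kinase of muscle type, read 4541 and 8709, 1.92-fold higher. Ldha, which turns pyruvate into lactate, read 6238 and 10510, 1.68-fold higher.

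The other enzymes of that stretch were nearer to 0. Aldoa, the main aldolase, read 5292 and 8335, 1.58-fold higher, and its 4 probe sets lay between 0.49 and 0.69. Pgk1, phosphoglycerate kinase, read 6667 and 10073, with log2 ratios of 0.60, 0.40 and -0.01 from its 3 probe sets. Tpi1, triosephosphate isomerase, read 5649 and 8337, with 0.56, 0.38 and -0.05. Pgam1, phosphoglycerate mutase, read 4048 and 5735 (0.50). Aldoc, the brain-type aldolase, read 874 and 949 (0.12), and a fainter probe set gave -0.37.

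High signal moved with these ratios across the whole array. All 278 measured genes with a mean signal of at least 3000, a bound chosen after the data had been seen, had a median log2 ratio of 0.31, with the middle 50% between 0.05 and 0.57, and 79.9% lay above 0. The 7 enzymes among them, Aldoa, Tpi1, Gapdh, Pgk1, Pgam1, Pkm and Ldha, had a median of 0.66. With loess scaling their median was 0.22 against -0.02 for the 278 genes. Single values were then 0.44 for Gapdh, 0.53 for Pkm, 0.25 for Ldha, 0.22 for Aldoa, 0.18 for Pgam1, 0.12 for Tpi1 and 0.09 for Pgk1. Of these, Pkm and, by its brightest probe set only, Gapdh were past the SD of 0.42 for bright genes. The other Gapdh control probe sets gave 0.403 and 0.415 with loess. With quantile scaling Pkm was at 0.38 and Gapdh at 0.22, both within that SD. In deposited signals all 7 were lower with adenosine, Gapdh with a log2 ratio of -0.47 and Pgam1 with -0.99. No enzyme of this stretch thus keeps a 2-fold difference once its signal is taken into account.

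**Figure D2:**
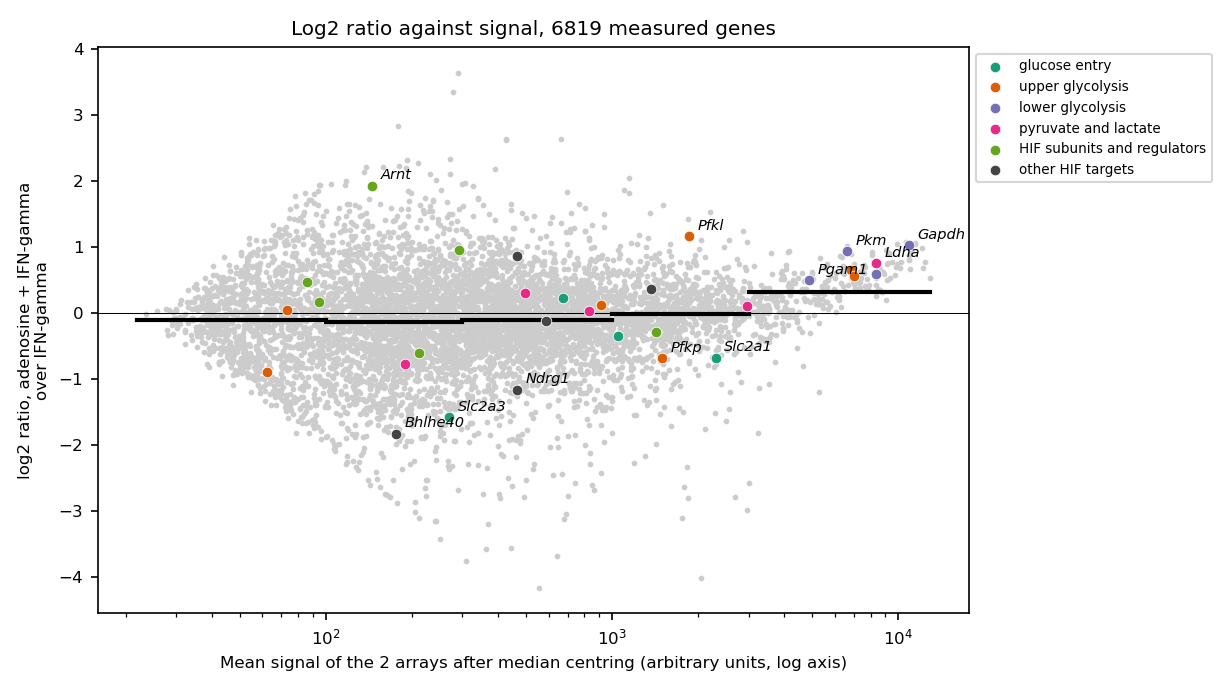
Log2 ratio (adenosine with IFN-gamma over IFN-gamma) against mean signal of both arrays (log axis, arbitrary units) for 6819 measured genes in grey, with the listed genes coloured by role and black bars for the median of all genes in 5 ranges of signal. The bar of the brightest 278 genes lies at 0.31, and the 7 bright enzymes lie between 0.50 and 1.03.

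Genes that hold back the oxidation of pyruvate or export lactate differed little, apart from Pdk1. Pyruvate dehydrogenase kinases hold back the entry of pyruvate into the citric acid cycle, and Pdk1 is a HIF target. Pdk1 read 239 and 140, 1.71-fold lower, and its second probe set was 2.79-fold lower, from 272 to 97.2. Pdk3 read 445 and 547 (log2 ratio 0.30), and exceeded Pdk1 by 1.07, or by 1.78 with the second Pdk1 probe set. The lactate transporter genes Slc16a1 (2858 and 3071) and Slc16a3 (821 and 843) had ratios of 0.10 and 0.04, that of Slc16a1 turning to -0.06 with loess. Both arrays thus gave nearly the same scaled signal for these transporters.

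Among the HIF subunits, Arnt was the farthest from the median. Arnt, also a partner of the aryl hydrocarbon receptor, read 60.2 with IFN-gamma, close to the floor, and 230 with adenosine, 3.82-fold higher. It was the 1 listed gene whose deposited signal was also higher on the adenosine array, at 81.6. Its other probe set did not reach the floor, with 8.40 and 6.48, so the difference has no second reading. The brighter probe set has a name ending in _a_at and is left out where shared ones are dropped, so Arnt was not measured in that setting. With the floor at the 67th percentile, which lies above its IFN-gamma signal, the log2 ratio was 0.48.

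Hif1a gave no single direction. Its brightest probe set read 1569 and 1283 (log2 ratio -0.29), a second 299 and 490 (0.72) and another 266 and 85.4 (-1.64). These values span 2.35 on the log2 scale, against a scatter of 0.52. Egln1, the main oxygen sensor of the EGLN family, was split in the same way. One probe set read 198 and 384, 1.94-fold higher, and the other 312 and 158, 1.98-fold lower.

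The remaining regulators each had 1 measured probe set. Egln2 read 256 and 168, 1.52-fold lower. Egln3, itself a HIF target, read 89.0 and 99.8 (0.17), and Vhl, which takes HIF-1 alpha to degradation, 72.0 and 100.1 (0.47). All 3 read below 304 with IFN-gamma, the median of all measured genes. Of them only Egln2 was past the SD of probe set scatter, and it was within that SD with loess (-0.50) and quantile scaling (-0.46).

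Other HIF targets held the lowest value of the list at the floor of 44.0. Bhlhe40, a transcriptional repressor that binds E-boxes, read 275 with IFN-gamma and 77.2 with adenosine, 3.55-fold lower, from its only probe set. With the floor at the 67th percentile its log2 ratio was -0.73, no longer 2-fold, and Slc2a3 was then lowest at -1.29. Ndrg1, a stress-response gene, read 645 and 288, 2.24-fold lower, and a second probe set that also marks shared targets was 2.84-fold lower. The other 3 gave log2 ratios of -0.34, -0.28 and 0.10, so its probe sets do not bear each other out. Mxi1, which encodes an antagonist of MYC, was on the other side. It read 331 and 602, 1.82-fold higher, and 132 and 660 by its second probe set, 5.00-fold higher.

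P4ha1 and Ero1l, which act on proteins in the endoplasmic reticulum, had discordant probe sets. P4ha1, a collagen prolyl hydroxylase subunit, read 611 and 561 (-0.12) by one and 324 and 676 (1.06) by the other. Ero1l, annotated as Ero1a, the disulfide-forming oxidase, gave 0.36 (1194 and 1532), -0.65 and -0.08. In 16 listed genes both arrays exceeded the floor in 2 or more probe sets. The brightest pair differed in sign in 5 of these, and the scatter between such pairs was 0.63, against 0.52 for all genes.

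**Figure D3:**
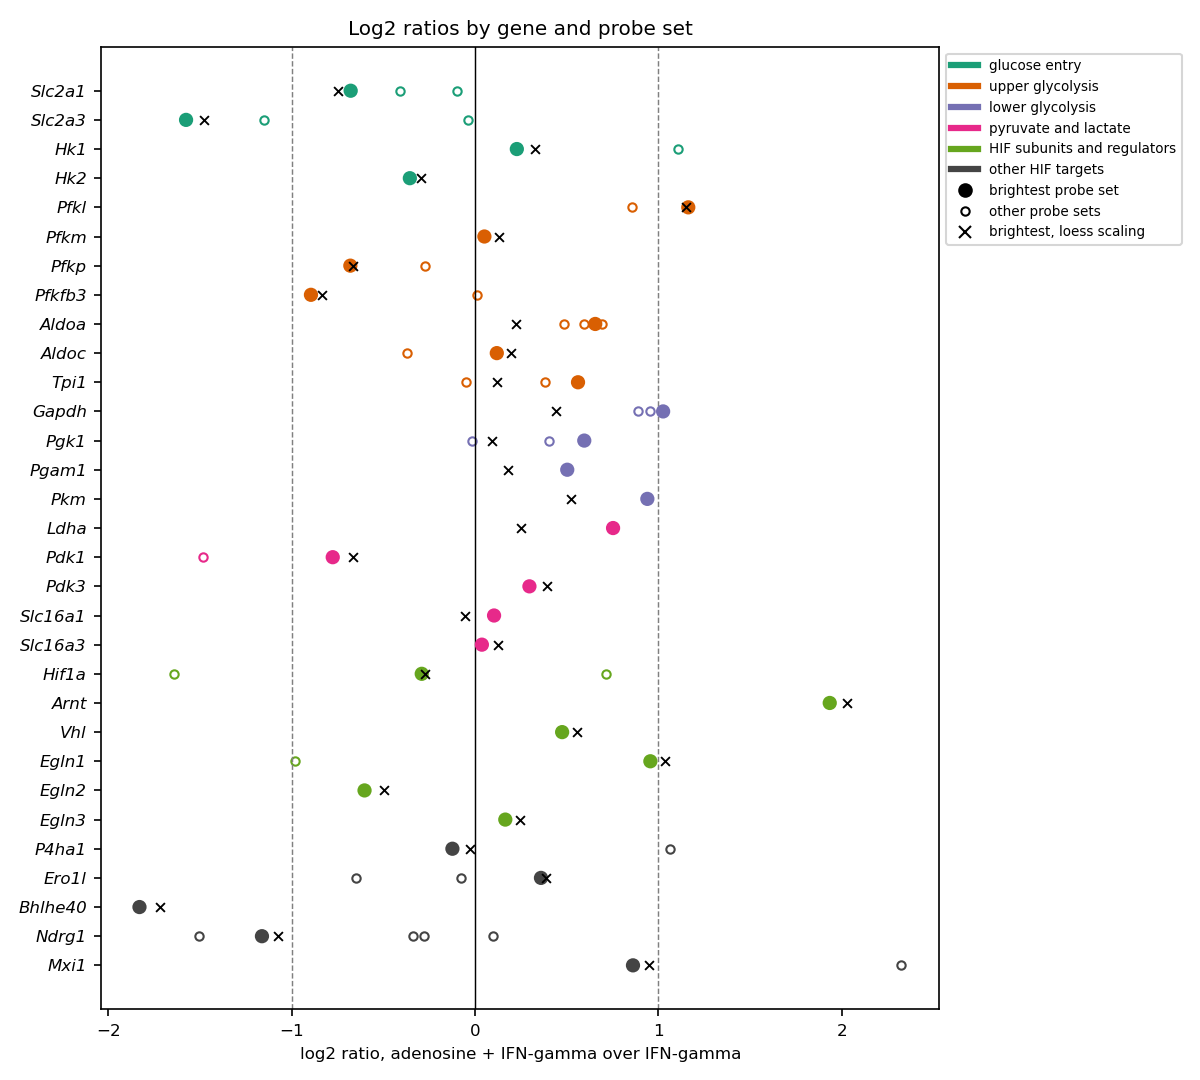
Log2 ratio of each measured gene (adenosine with IFN-gamma over IFN-gamma), with filled circles for the brightest probe set, open circles for its other measured probe sets and crosses for the brightest with loess scaling, and dashed lines at 2-fold. Pfkl and Pfkp, and Mxi1 and Bhlhe40, keep their sides in every measured probe set, while Hif1a, Egln1, P4ha1 and Ero1l have probe sets on both sides of 0.

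By role, the median was highest in lower glycolysis, at 0.77 over 4 genes, and lowest in glucose entry, at -0.52 over 4. With loess these were 0.31 and -0.52, and as deposited -0.73 and -2.01. The order turned with loess and quantile scaling, where HIF subunits and regulators were highest at 0.40 and 0.42, and without shared probe sets, where upper glycolysis was lowest at -0.53. Pyruvate and lactate genes had a median of 0.10 over 5 genes and upper glycolysis of 0.12 over 7. Glucose entry thus lay below the median of all genes with each scaling and lower glycolysis above it, although without shared probe sets the glucose entry median moved to -0.10.

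**Figure D4:**
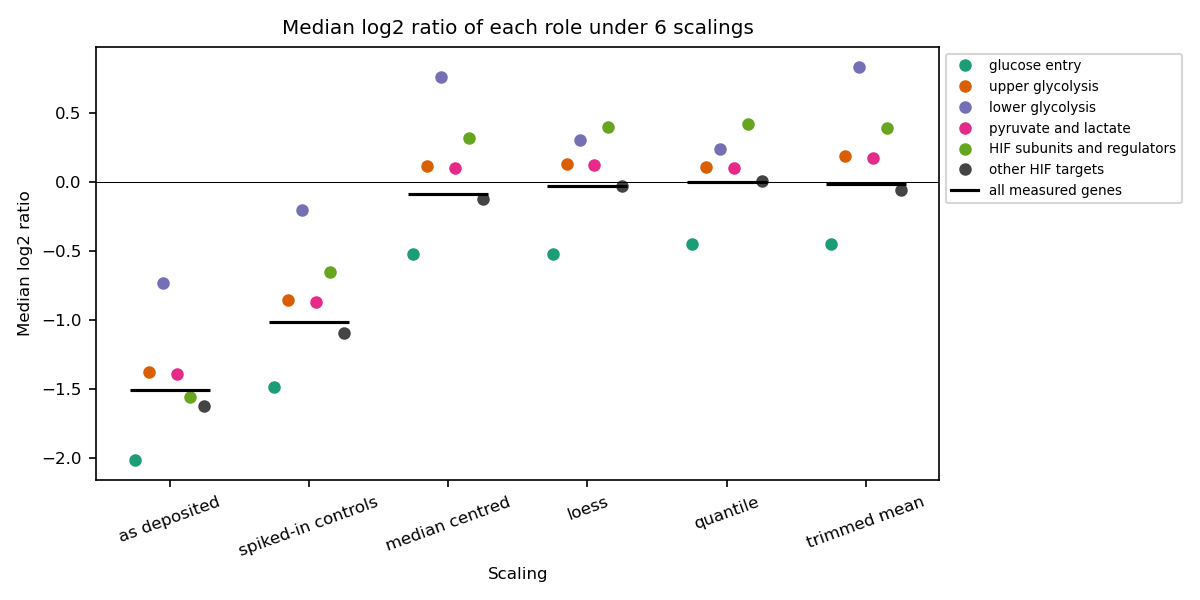
Median log2 ratio of each role (circles, coloured) and of all measured genes (black bars) under 6 scalings of the 2 arrays. Glucose entry is lowest and below the bar in all 6, lower glycolysis is above the bar in all 6 but goes from 0.77 to 0.31 with loess and 0.24 with quantile scaling, and all roles are below 0 in the deposited values and under spiked-in scaling.

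Of 61 further genes of glycolysis, pyruvate oxidation and the hypoxia response, 48 had a probe set and 33 were measured. At least 2-fold higher were 2 of the 33 and at least 2-fold lower was 1, shares of 6.06% and 3.03% against 4.52% and 10.1% of all measured genes, with a median log2 ratio of -0.10. Vegfa, the angiogenic HIF target, read 125 and 490, 3.91-fold higher, although its other probe set gave -0.12. Ddit4, an inhibitor of mTOR signalling that low oxygen induces, read 123 and 476, 3.88-fold higher. Kdm3a, a histone demethylase and HIF target, read 455 and 209, 2.18-fold lower. None of 8 measured glycolytic and 8 measured pyruvate genes of that list was 2-fold away by its brightest probe set. Of all measured genes 14.7% were, in either direction. The glucose transporter gene Slc2a8 (71.9 and 140) nonetheless went from a log2 ratio of 0.96 to 1.04 with loess. Bpgm (61.9 and 97.8) had 0.66, and 0.80 and 1.05 from its other probe sets. Minpp1 (559 and 288) had -0.95, and -0.49 from its other probe set. Of the pyruvate genes, Bsg, the chaperone of lactate transporters, read 1822 and 2790 (0.61). The subunit genes of pyruvate dehydrogenase Pdha1 and Pdhb had ratios of 0.51 and 0.13. Of the 17 measured hypoxia genes 6 lay above 0, with a median of -0.16. Near 0 by their brightest probe set were, among others, Cited2 (-0.04), Ak4 (-0.03), Higd1a (-0.23), Fam162a (0.18) and Plod1 (0.31). Farther below 0 were Bnip3 (-0.73), Adm (-0.69), Stc2 (-0.61), Cul2 (-0.49) and Crebbp, at -0.62 with the adenosine signal raised to the floor. Further probe sets gave 2.19 for Cited2, 2.28 and 0.22 for Higd1a, and -0.10 and 1.00 for Ak4. They gave -0.83 for Cul2 and -0.55 for Stc2.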

How the data were processed

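The 2 arrays measured total RNA of RAW 264.7 cells, 1 pool of 2 experiments per treatment. The authors deposited 1 linear intensity per probe set and array, made with the Affymetrix software GCOS per the submitters' processing notes. Signal algorithm, scaling target and genome build are not stated in these sources. Probe sets were named from the platform annotation and symbols matched to RefSeq tables of GRCm38.p6. An older symbol was accepted where RefSeq lists it as a synonym, which applied to 1 gene, Ero1l, annotated as Ero1a.

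Log2 ratios of the intensity values were computed with Python 3.11.15, numpy 2.4.6 and statsmodels 0.14.6, and the calculation was tested on simulated data. The log2 ratio was centred on its median over the 10051 probe sets above 24.5 on both arrays, which was -1.50, so signals of the adenosine array were multiplied by 2.82. The floor was the 50th percentile of scaled signals, 44.0. A gene counted as measured where at least 1 array reached the floor, and signals under it were set to it. The probe set with the highest mean signal stood for a gene, and probe sets with several symbols stayed out. Gapdh was read from the manufacturer's control probe sets, the only ones with that symbol alone.

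With 1 array per treatment there is no test and no p-value. The members and gene lists were chosen with earlier results of these data known, and median centring was chosen for the same reason. Every measured member is given with its values, and of the other pathway genes those at least 2-fold away are named. Alternatives were 5 other scalings, 2 other floors, a pseudocount of 16, 2 other ways to combine probe sets and thresholds of 1.5-fold and 3-fold. The setting without shared probe sets dropped every name ending in _s_at, _x_at or _a_at. The loess fit (span 0.3) used probe sets chosen on the mean log2 signal of both arrays. Leaving out the manufacturer's control probe sets was added after the data had been seen, as were all alternatives for the other pathway genes.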

Additional observations from a re-analysis of the deposited data

How the results depend on the processing

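No paired analysis was possible because there is a single array per group, which also means that no replicate can be dropped. Scaling set the direction of the medians. As deposited, the medians were -1.32 for glycolytic genes, -1.56 for HIF subunits and regulators, -1.62 for other HIF targets and -1.38 for all listed genes. The brightest probe set was picked anew in each setting. As deposited it was not the one used after median centring for Egln1 (-2.48) and Pdk1 (-2.98), so these medians reflect more than the scale. With spiked-in scaling they were -0.79, -0.65, -1.09 and -0.80. Without shared probe sets the medians of the glycolytic genes and of all listed genes were both -0.00076. Counts of listed genes 2-fold higher and lower, 3 and 3, became 0 and 21 in deposited signals, and 0 and 11 with the spiked-in controls as the scale. Trimmed mean scaling gave 5 higher, and leaving out shared probe sets gave 1. At 1.5-fold the counts were 9 and 8, at 3-fold 1 and 1. Pfkl and Gapdh turned to -0.33 and -0.47 as deposited. Other pathway genes, 2 higher and 1 lower, became 0 and 27 in deposited signals, 0 and 18 by spiked-in controls and 4 and 3 with the 33rd percentile floor. The pseudocount gave 3 lower, and leaving out shared probe sets 1 higher. The sign turned for 19 listed genes in deposited signals, 17 with spiked-in controls, 4 with averaged probe sets, 2 with quantile scaling and 1 each with loess and without shared probe sets. Of the 6 genes 2-fold away, 3 stayed so in deposited signals and 3 with spiked-in controls. In both settings these were the lower ones, Bhlhe40, Slc2a3 and Ndrg1. Both settings move all ratios down, to 78.7% and 50.7% of all genes 2-fold lower, so these genes had to stay. With averaged probe sets 3 stayed (Slc2a3 was then at -0.92, Gapdh at 0.96 and Ndrg1 at -0.64). The 67th percentile floor kept 4, and loess and quantile scaling 5. All 6 stayed with trimmed mean scaling, the 33rd percentile floor and the pseudocount. Without shared probe sets 4 of them were measured, Pfkl and Arnt not, and 2 stayed. With 1 array each, the number of arrays limits every value.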
